A study of Mus musculus with 8 samples.

Results

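The levels of 10 genes of iron handling were followed in the RNA of mouse bone marrow B cells. They were chosen by name for their roles in taking up, storing, exporting or sensing iron. They were the transferrin receptor Tfrc, transferrin (Trf), the divalent metal transporter Slc11a2, the ferritin subunits Fth1 and Ftl1, the ferritin receptor Ncoa4, heme oxygenase 1 (Hmox1), ferroportin (Slc40a1) and the iron regulatory proteins Aco1 and Ireb2. These were 10 of the 54532 genes in the count table, and all 10 had enough reads to be among the 15305 genes tested. RNA-seq was performed on B cells sorted magnetically (MACS) from the marrow of mice after a sham operation (Sham) or ovariectomy (OVX), in 3 libraries each. Ovariectomy is a surgical model of estrogen deficiency, and the study asked how B cells differed after it. The labels of the RNA libraries give no strain, age, genotype or time after surgery. They also do not say whether the libraries of a group came from separate mice, so p-values measure the spread between libraries, which may be technical. A HIF-1α ChIP library and its input are not analysed here.

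Dividing cells take up iron when transferrin, the iron carrier of plasma, binds the transferrin receptor and is internalized, after which Slc11a2 moves the iron out of the endosome. Iron that is not used is held in ferritin, a shell built of heavy (Fth1) and light (Ftl1) chains, and Ncoa4 carries ferritin to the lysosome when iron is needed again. Aco1 and Ireb2 bind iron-responsive elements in messenger RNAs when iron is scarce, which stabilizes Tfrc messenger RNA and blocks translation of ferritin and ferroportin. Macrophages of the bone marrow engulf red cells and the nuclei shed by erythroblasts, break down heme with Hmox1 and release the iron through ferroportin, the known iron exporter of mammalian cells.

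As the study was about HIF-1α, a transcription factor that binds the hypoxia response element, the start regions of the members were searched for the core of that element. RefSeq sequence (GRCm38.p6, from 250 bases before to 50 after each start) was at hand for 6 of the 10 members, in 10 windows. The cores ACGTG or GCGTG, on either strand, were found in windows of 4 members: Tfrc, Fth1, Ftl1 and Ncoa4. Such letters are common, since ACGTG was in 19.6% and GCGTG in 32.4% of all 32851 windows of that length. Those shares are per window and per single core, and Ncoa4 had 3 windows, so they cannot be set beside the 4 members. The stretches of Tfrc, Fth1 and Ftl1 that hold a core are shown with the core in capitals, which reads CACGC where GCGTG lies on the other strand. The Tfrc stretch runs from base -120 to base 3 relative to a RefSeq start (chr16:32608776-32608898, plus strand), and those of Fth1 (chr19:9982586-9982645, plus strand) and Ftl1 (chr7:45459887-45459946, minus strand) hold the 60 bases before one.
Tfrc: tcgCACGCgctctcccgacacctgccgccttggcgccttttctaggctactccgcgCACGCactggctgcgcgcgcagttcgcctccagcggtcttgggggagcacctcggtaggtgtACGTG
Fth1: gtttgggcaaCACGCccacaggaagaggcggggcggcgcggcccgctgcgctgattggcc
Ftl1: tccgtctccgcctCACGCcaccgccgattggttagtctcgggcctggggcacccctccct
The letters TGACNNNGC, the core of the antioxidant response element, were in 1 of the 10 windows, against 12.4% of all windows on either strand. It was 1 of the 3 windows of Ncoa4. CAGTGN, the loop of the iron-responsive element, was searched on the transcript strand after the start and was in none of the member windows, against 7.08% of all windows. A match is a run of letters and was not tested as a binding site, and no match says only that the letters are not in these windows.

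The libraries held between 23838775 and 33136701 counts. The B cell identity of the sort was plain in each of them. Cd79a, a signal chain of the B cell receptor, was at 1775, 1673 and 1548 CPM in Sham replicates 1, 2 and 3, and at 1549, 1883 and 1776 CPM in OVX replicates 1, 2 and 3. CPM are counts per 1000000 counts of the library, scaled with the TMM factors of edgeR. Cells other than B cells were also represented, and unevenly. The summed level of 15 macrophage markers was 1180, 2534 and 687 CPM in Sham and 639, 715 and 2145 CPM in OVX, high in Sham 2 and OVX 3. The summed level of 12 neutrophil markers was 2076, 2741 and 7642 CPM in Sham and 3314, 915 and 970 CPM in OVX, and 11 erythroid markers summed to between 145 and 481 CPM. The 12 general B cell markers stayed between 9516 and 10829 CPM. No marker of these lists was at 0 reads in any library. In bulk RNA, fewer cells of a type and less RNA per cell cannot be told apart.

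For none of the 10 iron genes did the difference between OVX and Sham pass the test. None was called at an adjusted p under 0.05 by edgeR's quasi-likelihood test, and none had an unadjusted p under 0.05. Over all 15305 genes tested, edgeR, DESeq2 and limma-voom each called 0 (0.0%), and 574 genes (3.75%) had an unadjusted p under 0.05 in edgeR, against 755 with DESeq2 and 594 with limma-voom. Of the members, 6 (Aco1 at 0.00072 among them) had a positive and 4 a negative log2 fold change, OVX against Sham. With scaling on the 12 general B cell markers in place of TMM, 4 were positive and 6 negative. With TMM, the median log2 fold change of the members was 0.02, beside -0.0081 for all genes tested. The members ranged from -0.40 for Slc40a1 to 0.63 for Trf. What set the members apart from each other was the variation between libraries. Trf, Hmox1 and Slc40a1 varied 3.83-fold to 5.70-fold between the highest and the lowest library, and the other 7 members varied 1.21-fold to 1.6-fold, where the median over all genes tested was 1.43-fold. The 2 highest levels were those of Sham 2 and OVX 3 in 7 of the 10 members, and in 8.67% of all genes tested.

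**Figure D1:**
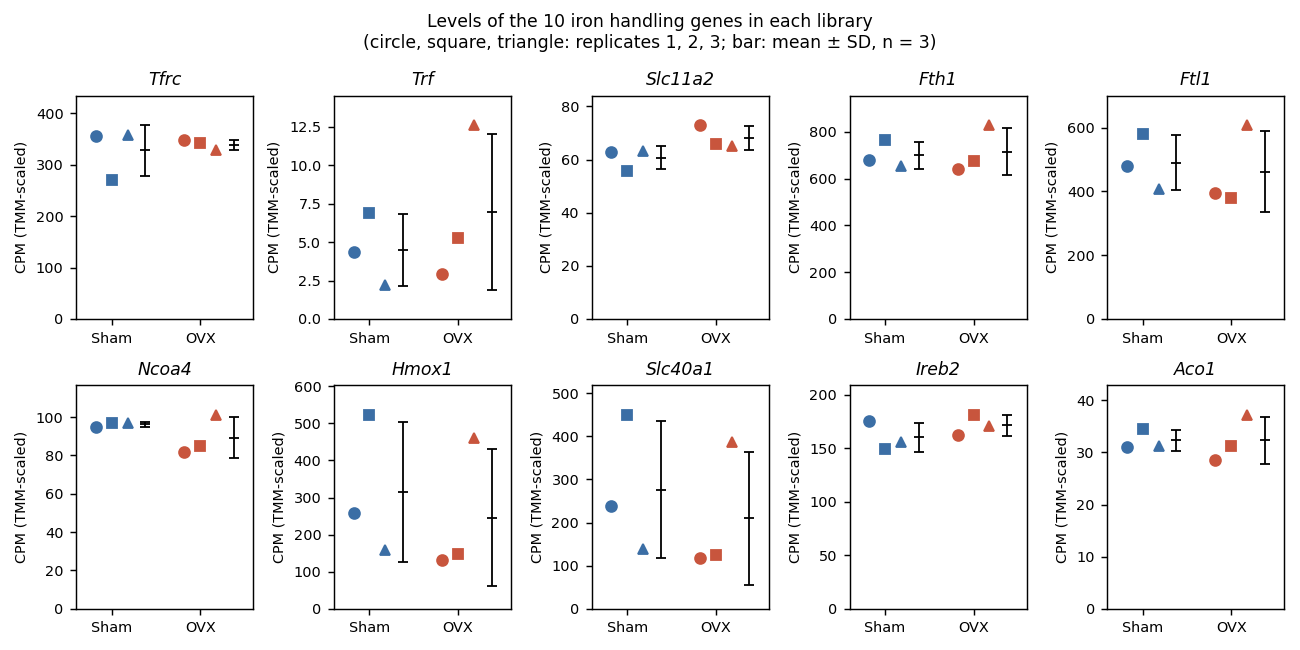
Level in CPM (y axis, from 0) of each of the 10 iron genes in the 3 Sham (blue) and 3 OVX (red) libraries, with circles, squares and triangles for replicates 1, 2 and 3 and bars for the group mean ± SD (n = 3). Hmox1 and Slc40a1 are high in 1 library of each group, at 524 and 460 CPM for Hmox1, while Tfrc, Slc11a2 and Ireb2 vary little.

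Among the genes of iron uptake, Tfrc (ENSMUSG00000022797, chromosome 16, 32608896 to 32632794) was at 356, 271 and 358 CPM in Sham and at 348, 342 and 328.5 CPM in OVX. The OVX libraries all lay within the range of the Sham libraries, and Sham 2 was the lowest of the 6. The OVX mean was 339 ± 9.85 CPM and the Sham mean 328.5 ± 49.6 CPM (SD, n = 3 each), with a log2 fold change of 0.05 ± 0.11 (SE; adjusted p = 0.92, edgeR). Sham 2 was also the lowest library for the summed cell cycle genes, at 2032 CPM against 2615 to 3167 CPM in the others. It was the lowest for the pro-B and pre-B markers as well, at 1762 CPM against 2157 to 3495 CPM. Per read of Mki67, a protein of dividing cells, Tfrc had 0.383, 0.440 and 0.412 reads in Sham and 0.355, 0.414 and 0.420 reads in OVX, and this ratio varied 1.24-fold between libraries where the Tfrc level itself varied 1.32-fold. Erythroblasts also carry the transferrin receptor, and the erythroid markers had their highest sum, 481 CPM, in the library where Tfrc was lowest. The part of these cell types in the Tfrc level was not tested.

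Slc11a2 (ENSMUSG00000023030, chromosome 15, 100387898 to 100424209), which moves ferrous iron across the endosomal membrane, was the member whose groups did not overlap in TMM-scaled level. Its level was 62.9, 55.7 and 63.4 CPM in Sham and 73.1, 65.9 and 65.1 CPM in OVX. Each OVX library was above each Sham library, which was so for 4.33% of all genes tested, and OVX was below Sham in each library for another 4.12%. The OVX mean was 68.0 ± 4.42 CPM and the Sham mean 60.7 ± 4.31 CPM (SD, n = 3 each), with a log2 fold change of 0.16 ± 0.08 (SE; adjusted p = 0.811, edgeR). The exact permutation test gave p = 0.1, two-sided, the smallest that 3 libraries against 3 allow. The log2 fold change stayed between 0.10 and 0.20 when each library was left out in turn. With scaling on the general B cell markers it was 0.13 ± 0.12 (SE). Relative to the sum of those markers the groups overlapped, with OVX 2 and OVX 3 below Sham 1 and Sham 3. Slc11a2 overlaps Gm5475, a long noncoding RNA with at most 11 reads in a library, and whether counting used the strand is not given in the sources used here.

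Trf (ENSMUSG00000032554, chromosome 9, 103208876 to 103230286), the plasma iron carrier, was sparse. It had 103, 195 and 55 reads in Sham and 71, 150 and 417 reads in OVX, or 4.35, 6.87 and 2.21 CPM in Sham and 2.89, 5.29 and 12.6 CPM in OVX. OVX 3 held the highest level and Sham 3 the lowest, and the groups overlapped. The OVX mean was 6.94 ± 5.07 CPM and the Sham mean 4.48 ± 2.33 CPM (SD, n = 3 each), with a log2 fold change of 0.63 ± 0.59 (SE; adjusted p = 0.815, edgeR). The log2 fold change was -0.13 without OVX 3 and 1.08 without Sham 2, so that the direction rested on OVX 3.

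Of the ferritin chains, Ftl1 varied more between libraries than Fth1. Fth1 (ENSMUSG00000024661, chromosome 19, 9980600 to 9985111), whose chain oxidizes iron for storage, was at 681, 763 and 654 CPM in Sham and at 642, 673 and 830.3 CPM in OVX. Ftl1 (ENSMUSG00000050708, chromosome 7, 45457944 to 45459886), whose chain helps the iron core form, was at 478, 581 and 409 CPM in Sham and at 395.5, 381 and 609 CPM in OVX. Both were highest in OVX 3 and next highest in Sham 2, which were also the 2 highest libraries for the macrophage markers. Fth1 varied 1.29-fold and Ftl1 1.6-fold between libraries, where the summed macrophage markers went from 639 to 2534 CPM.

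The group means of Fth1 were 715 ± 101 CPM in OVX and 699 ± 56.9 CPM in Sham, and those of Ftl1 were 462 ± 128 CPM and 489 ± 86.4 CPM (SD, n = 3 per group). The log2 fold changes were 0.03 for Fth1 (standard error 0.12, adjusted p = 0.948) and -0.08 for Ftl1 (standard error 0.21, adjusted p = 0.921, edgeR's quasi-likelihood test). The light chain had 0.702, 0.761 and 0.626 reads per heavy chain read in Sham and 0.616, 0.565 and 0.733 in OVX, and the groups overlapped. This ratio was also highest in Sham 2 and OVX 3. The table holds 15 rows of ferritin copies, pseudogenes and related genes, which could share reads with Fth1 or Ftl1, so the values of both are uncertain. Ftl1-ps1 had the most reads of these rows, 43 to 99 per library, beside 9711 to 20110 for Ftl1, and 11 rows had no read in any library.

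Ncoa4 (ENSMUSG00000056234, chromosome 14, 32159879 to 32179855), the receptor that sends ferritin to the lysosome, was at 94.8, 97.1 and 96.9 CPM in Sham and at 81.8, 84.8 and 101.4 CPM in OVX. OVX 1 and OVX 2 lay below all Sham libraries and OVX 3 above them. The OVX mean was 89.3 ± 10.6 CPM and the Sham mean 96.3 ± 1.29 CPM (SD, n = 3 each), with a log2 fold change of -0.11 ± 0.09 (SE; adjusted p = 0.812, edgeR). Without OVX 3 the log2 fold change was -0.21, with an unadjusted p of 0.0286 and an adjusted p of 0.929 in edgeR's quasi-likelihood test.

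**Figure D2:**
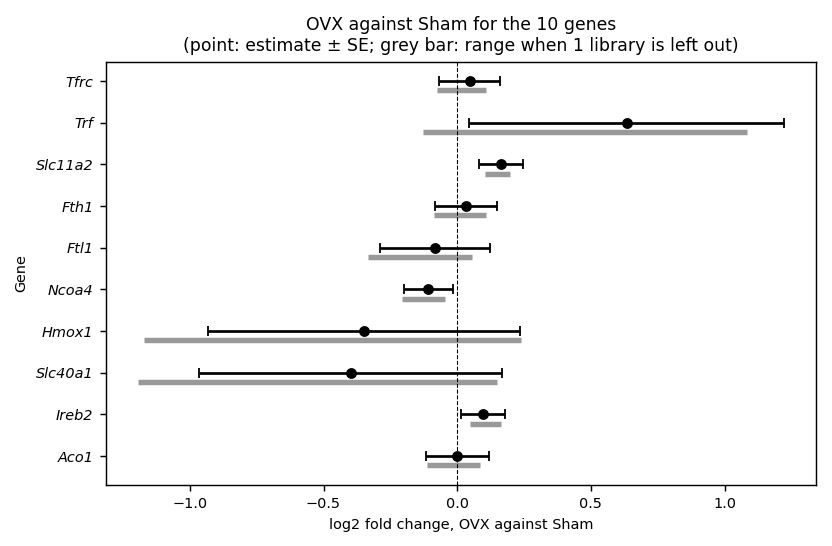
log2 fold changes, OVX relative to Sham (x axis), for each gene (y axis), with points and black bars for the estimate ± its standard error from 3 libraries per group and grey bars for the lowest to the highest estimate when 1 library was left out. The grey bars of Hmox1 and Slc40a1 reach from -1.17 to 0.24 and from -1.19 to 0.15, and those of Slc11a2, Ncoa4 and Ireb2 stay on 1 side of 0.

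Heme breakdown and iron export showed the widest library-to-library swings besides Trf. Hmox1 (ENSMUSG00000005413, chromosome 8, 75093618 to 75100593), the enzyme that frees iron from heme, was at 259.6, 524 and 158 CPM in Sham and at 131, 148 and 460 CPM in OVX. Slc40a1 (ENSMUSG00000025993, chromosome 1, 45908070 to 45926532), which exports iron from the cell, was at 239, 450.5 and 139 CPM in Sham and at 118, 124 and 387 CPM in OVX. In both genes Sham 2 and OVX 3 were high, Sham 1 was between, and Sham 3, OVX 1 and OVX 2 were low, so that the groups overlapped. The spread between the highest and the lowest library was 3.998-fold for Hmox1, a spread that 9.27% of all genes tested reached, and 3.83-fold for Slc40a1.

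The means of Hmox1 were 246 ± 185 CPM in OVX and 314 ± 189 CPM in Sham, and those of Slc40a1 were 209.5 ± 154 CPM and 276 ± 159 CPM (SD, n = 3 per group). The log2 fold changes were -0.35 for Hmox1 (standard error 0.58, adjusted p = 0.88) and -0.40 for Slc40a1 (standard error 0.57, adjusted p = 0.864, edgeR's quasi-likelihood test). Both values moved by over 1.5 times when any library other than Sham 1 was left out. Without OVX 3 they were -1.17 and -1.19, with unadjusted p-values of 0.0463 and 0.0386 and an adjusted p of 0.929 for both in edgeR's quasi-likelihood test. Without Sham 2 they turned to 0.24 and 0.15. They were -0.68 and -0.73 without Sham 3, -0.05 and -0.11 without OVX 1, and -0.09 and -0.13 without OVX 2. With Sham 2 and OVX 3 both left out, a comparison added after the data were seen, they were -0.58 and -0.65, with unadjusted p-values of 0.0491 and 0.0425 and an adjusted p of 0.9998 for both in edgeR's quasi-likelihood test.

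The iron regulatory proteins varied little. Ireb2 (ENSMUSG00000032293, chromosome 9, 54862658 to 54912534), which senses iron by being degraded when iron is plentiful, was at 175, 149.5 and 156 CPM in Sham and at 162, 181.5 and 170.4 CPM in OVX. Aco1 (ENSMUSG00000028405, chromosome 4, 40143265 to 40199009), which switches between an RNA-binding protein and an aconitase with its iron-sulfur cluster, was at 31.1, 34.6 and 31.3 CPM in Sham and at 28.5, 31.2 and 37.3 CPM in OVX. The groups overlapped for both, and the libraries that were high for Aco1, Sham 2 and OVX 3, were not those that were high for Ireb2. Ireb2 averaged 171 ± 9.64 CPM in OVX and 160.1 ± 13.3 CPM in Sham (SD, n = 3 each), with a log2 fold change of 0.10 ± 0.08 (SE; adjusted p = 0.812, edgeR). Aco1 had a mean of 32.3 CPM in both groups (SD 4.51 in OVX and 1.97 in Sham, n = 3 each), and its log2 fold change was 0.00072 ± 0.12 (SE; adjusted p = 0.998, edgeR). There were 5.63, 4.32 and 4.98 reads of Ireb2 per read of Aco1 in Sham and 5.69, 5.82 and 4.57 in OVX.

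The other 7 members were then set against the macrophage-type genes Hmox1, Slc40a1 and Trf. C1qa, C1qb and C1qc, the chains of complement C1q that resident macrophages make, followed the pattern of Hmox1 closely. C1qa was at 103, 222 and 64.6 CPM in Sham and at 55.6, 66.6 and 187 CPM in OVX. Spic, a transcription factor of iron-recycling macrophages, was at 23.0, 52.1 and 12.1 CPM in Sham and at 14.5, 11.6 and 36.7 CPM in OVX. Vcam1, an adhesion molecule of macrophages of the erythroblastic island, was at 278, 590.3 and 132 CPM in Sham and at 139, 161 and 485 CPM in OVX. In 14 of the 15 macrophage markers the 2 highest levels were those of Sham 2 and OVX 3, and the markers varied 3.61-fold to 38.8-fold between libraries. The 12 general B cell markers varied 1.11-fold to 2.23-fold, Cd79a 1.22-fold among them, and the 9 pro-B and pre-B markers 1.65-fold to 3.10-fold.

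**Figure D3:**
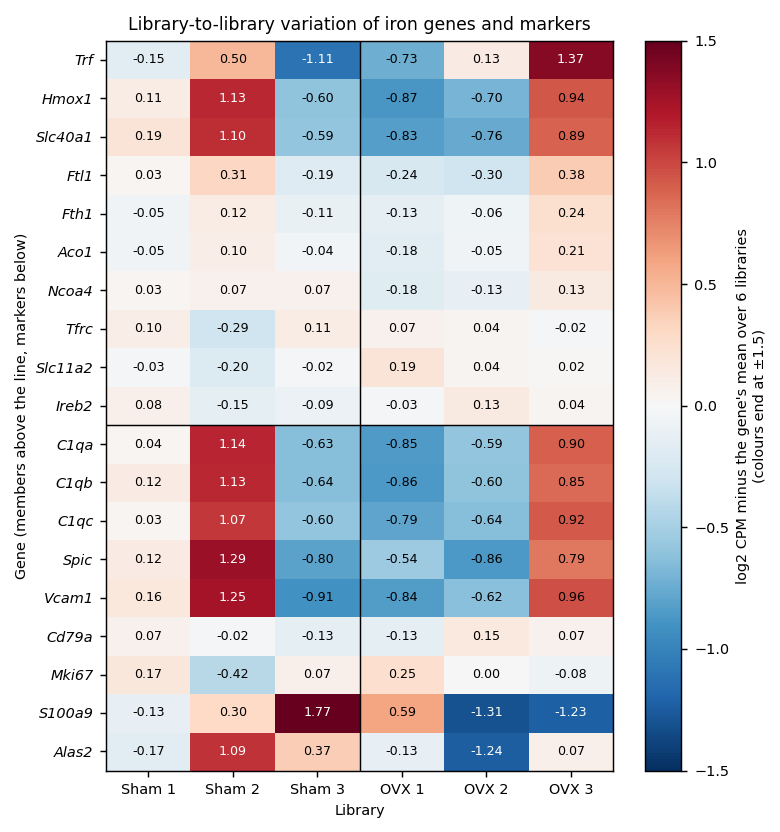
Colour and number give log2 CPM minus the gene's own mean over the 6 libraries (columns, 3 Sham and 3 OVX), for the 10 iron genes above the horizontal line and markers of macrophages (C1qa to Vcam1), B cells (Cd79a), cell division (Mki67), neutrophils (S100a9) and erythroid cells (Alas2) below it. Hmox1 and Slc40a1 share the profile of the C1q genes, at 1.13 and 1.10 in Sham 2 and 0.94 and 0.89 in OVX 3, and Tfrc, Slc11a2 and Ireb2 are lowest in Sham 2.

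Likeness of pattern was measured as the root mean square difference of log2 level, centred on each gene's mean, over the 6 libraries, among the 13169 tested genes with a mean of at least 1 CPM. The genes nearest to Hmox1 were Slc40a1 (0.0490), C1qb (0.0537) and C1qa (0.0596). The genes nearest to Slc40a1 were Hmox1 (0.0490), C1qb (0.0744) and Igf1 (0.0751), a growth factor at 13.3 to 52.7 CPM. Trf was farther from every gene. Its nearest were the transcription factor Etv1 (0.231), the bone morphogenetic protein Bmp2 (0.263) and the small GTPase Rab34 (0.296), each at most at 3.27 CPM, and Hmox1 came at place 97 (0.518). These distances describe 6 libraries and share their cells.

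Hmox1 and Slc40a1 kept a nearly fixed proportion to the macrophage markers. For 100 CPM of the summed macrophage markers, Hmox1 had 22.01, 20.7 and 23.0 CPM in Sham and 20.5, 20.6 and 21.4 CPM in OVX. Slc40a1 had 20.3, 17.8 and 20.2 CPM in Sham and 18.4, 17.3 and 18.04 CPM in OVX. The highest ratio was 1.12 times the lowest for Hmox1 and 1.17 times for Slc40a1, and 3 and 7 of the 15305 genes tested (0.0196% and 0.0457%), the gene itself and genes of the marker sum included, had a ratio as even as that. The groups overlapped for both ratios, with exact permutation p-values of 0.2 and 0.3 (two-sided). There were 1.09, 1.16 and 1.14 reads of Hmox1 per read of Slc40a1 in Sham and 1.11, 1.19 and 1.19 in OVX.

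The other members did not keep such a proportion. The ratio to the macrophage markers varied 5.09-fold for Tfrc, 5.20-fold for Slc11a2, 4.30-fold for Ireb2, 3.68-fold for Ncoa4, 3.34-fold for both Fth1 and Aco1, and 2.70-fold for Ftl1. Of these 7 genes, Ftl1 was thus the one that followed the macrophage markers most, and 2.38% of all genes tested had a ratio at least as even. With the summed macrophage markers as a covariate in edgeR's fit, the OVX-to-Sham log2 fold changes were -0.08 for Hmox1 and -0.13 for Slc40a1. How much of each gene's RNA came from macrophages was not tested.

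Trf stood apart from the other macrophage-type genes. For 100 CPM of the summed macrophage markers it had 0.369, 0.271 and 0.322 CPM in Sham and 0.452, 0.740 and 0.589 CPM in OVX. Each OVX library was above each Sham library, at 0.594 ± 0.144 on average in OVX against 0.321 ± 0.0488 in Sham (SD, n = 3 each), a log2 difference of 0.87 (exact permutation test, two-sided, p = 0.1, the smallest possible). Trf was the only member whose ratio separated the groups this way, which 35 of the 15305 genes tested (0.229%) did. A gene of even level could not do so, because the marker sum was 2145 CPM in OVX 3 and 687 CPM in Sham 3. That share is therefore low by construction and does not show how rare the separation of Trf is. Per 100 reads of Hmox1 there were 1.67, 1.31 and 1.40 reads of Trf in Sham and 2.21, 3.59 and 2.75 in OVX.

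The counts behind this ratio were low. The exact binomial 95% interval covers only the counting error within a library, and reads carried no molecular identifiers, so copies of a molecule count separately. It ran from 1.36 to 2.03 for Sham 1 and from 1.72 to 2.79 for OVX 1, and these overlapped. That of Sham 3, from 1.05 to 1.83, also overlapped that of OVX 1. The intervals of OVX 2 (3.03 to 4.22) and OVX 3 (2.49 to 3.03) lay above all Sham intervals. With the macrophage markers as a covariate the log2 fold change of Trf was 0.88 (standard error 0.25), with an unadjusted p of 0.0106 and an adjusted p of 0.881 in the same edgeR test. OVX 3, where the level of Trf itself was highest, also stood apart in other genes. The 7 stroma markers summed to 61.0 CPM in OVX 3 against 17.3 to 30.3 CPM in the other libraries. Marco, a scavenger receptor of macrophages named after its values were seen, was at 35.6 CPM in OVX 3 and at 0.92 to 2.57 CPM elsewhere. In OVX 2, where Trf was highest relative to the macrophage markers, the stroma sum was 20.9 CPM. The part of these cells in the Trf level was not tested.

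**Figure D4:**
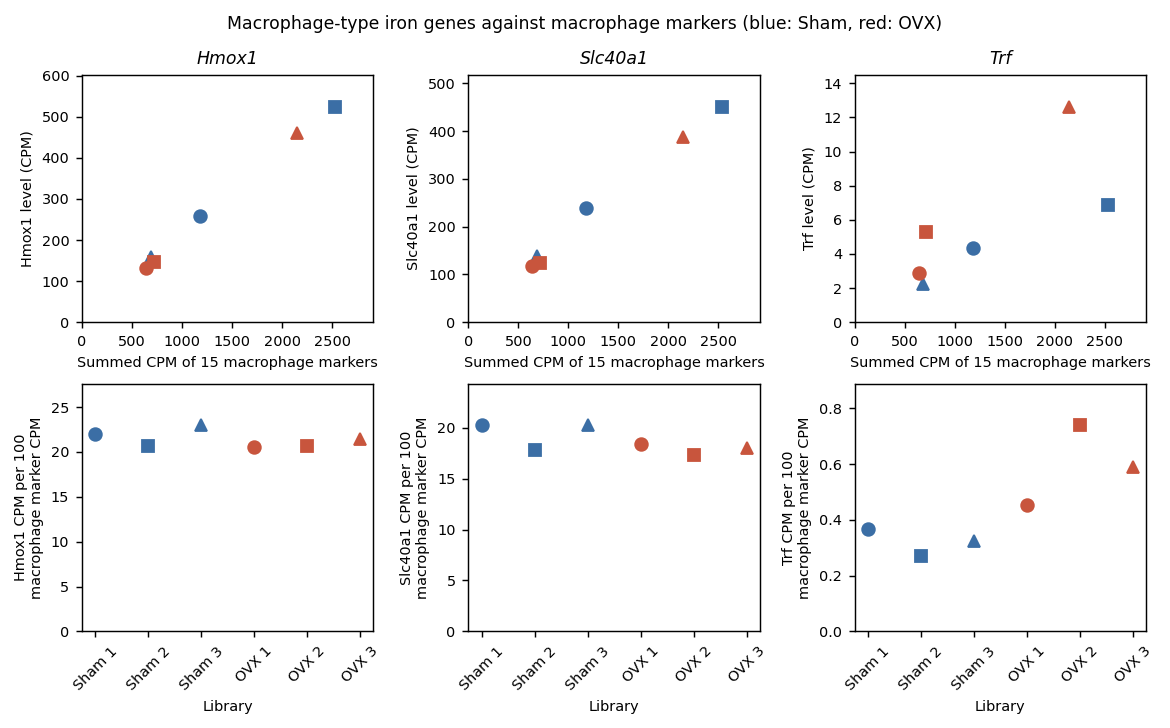
Upper row, level in CPM of Hmox1, Slc40a1 and Trf (y axes) against the summed CPM of 15 macrophage markers (x axes), with 1 point per library and circles, squares and triangles for replicates 1, 2 and 3. Lower row, the same genes per 100 CPM of those markers by library, where Hmox1 lies between 20.5 and 23.0 and Trf lies at 0.271 to 0.369 in Sham (blue) and 0.452 to 0.740 in OVX (red).

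Beyond the members, 50 further iron genes were listed by role, of which 38 had enough reads to be tested. None was called by edgeR's quasi-likelihood test, and 2 of the 38 had an unadjusted p under 0.05 (3.75% of all genes tested). The log2 fold change was positive for 20 and negative for 18, which became 14 and 24 with scaling on the general B cell markers. With TMM, the median log2 fold change of the 38 was 0.01, with a range from -1.26 to 0.40. In TMM-scaled level, no gene of the list had every OVX library above every Sham library. Abcb10 and Hspa9, 2 genes, had every OVX library below, where the shares over all genes tested were 4.33% and 4.12%. Relative to the summed general B cell markers, both overlapped, with OVX 1 above Sham 1. These counts of 38 genes lie near the background.

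Alas1, the first enzyme of heme synthesis outside red cells, was at 33.7, 38.9 and 53.7 CPM in Sham and at 34.1, 28.5 and 28.6 CPM in OVX. Its groups overlapped through Sham 1 and OVX 1, and its log2 fold change was -0.47 (standard error 0.18, unadjusted p = 0.0316, adjusted p = 0.811, edgeR's quasi-likelihood test). Abcb10, a transporter of the inner mitochondrial membrane needed for heme synthesis, was at 20.4, 27.2 and 29.0 CPM in Sham and at 20.2, 19.2 and 16.9 CPM in OVX. Its log2 fold change was -0.44 (standard error 0.15, unadjusted p = 0.0223, adjusted p = 0.811, edgeR's quasi-likelihood test). The erythroid marker Alas2, the heme synthesis enzyme of red cells, was at 7.05, 16.9 and 10.3 CPM in Sham and at 7.25, 3.32 and 8.36 CPM in OVX, and the globin Hbb-bt at 28.0, 50.7 and 28.4 CPM in Sham and at 26.9, 13.9 and 28.9 CPM in OVX. All 11 erythroid markers had a negative log2 fold change, and so had all 12 neutrophil and all 7 monocyte markers. Alas1 and Abcb10 were highest in Sham 3 and lower in OVX 2 and OVX 3 than in any Sham library, as were the sums of the neutrophil and the monocyte markers, the latter at 131, 248 and 557 CPM in Sham and 228, 70.3 and 65.5 CPM in OVX. The part of these cell types in the values of Alas1 and Abcb10 was not tested. Hspa9, a mitochondrial chaperone of iron-sulfur cluster assembly, was at 205, 213 and 215.5 CPM in Sham and at 201, 196 and 188 CPM in OVX, a log2 fold change of -0.12 (standard error 0.06).

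By role, the uptake genes had 7 of 10 members tested, 1 higher and 6 lower in OVX. The one that was higher, the metalloreductase Steap4, was at 60.5, 31.9 and 55.0 CPM in Sham and at 56.0, 71.6 and 66.8 CPM in OVX (log2 fold change 0.40, standard error 0.23). Like Tfrc, it was lowest in Sham 2. The iron chaperones Pcbp1 and Pcbp2 were both tested, with a log2 fold change of 0.06 for Pcbp1. Of the sensing genes 3 of 7 were tested, all with a positive log2 fold change. Fbxl5, the ubiquitin ligase subunit that marks Ireb2 for degradation, was at 190, 138 and 169 CPM in Sham and at 175, 202.5 and 187 CPM in OVX (log2 fold change 0.18, standard error 0.12). Hamp, which encodes the hormone hepcidin, had 1 read in each Sham library and none in OVX and was not tested. Of the export genes only the copper oxidase Cp had enough reads, at 1.77, 2.43 and 1.33 CPM in Sham and at 0.937, 1.48 and 3.48 CPM in OVX. Like Trf, it was highest in OVX 3.

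Heme turnover and transport had 8 of 10 genes tested, 3 higher and 5 lower (2 and 6 with scaling on the B cell markers), and the biliverdin reductase Blvrb was at 79.0 to 109 CPM (log2 fold change 0.16). Among the tested genes of this role, the widest spread between libraries was that of Cd163, the receptor for hemoglobin bound to haptoglobin, and Lrp1, a receptor for heme bound to hemopexin, both named after their values were seen. Cd163 was at 80.1, 141 and 28.3 CPM in Sham and at 41.8, 44.3 and 146 CPM in OVX, and Lrp1 at 54.4, 148 and 69.7 CPM in Sham and at 39.2, 33.1 and 101 CPM in OVX. Both were thus high in Sham 2 and OVX 3, like Hmox1. All 11 genes of mitochondrial iron and iron-sulfur cluster assembly were tested, 8 higher and 3 lower. Their median log2 fold change was 0.02, and the split became 5 and 6 with scaling on the B cell markers. The transcriptional regulators Bach1, Nfe2l2 and Keap1, which control Hmox1 and ferritin, had log2 fold changes between -0.03 and 0.05.

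The myeloid iron genes had log2 fold changes of -1.26 for lactoferrin (Ltf), -1.22 for Lcn2 and -0.64 for Slc11a1, of which the first 2 were the lowest of the list and the last 2 were named after their values were seen. Ltf, an iron-binding granule protein of neutrophils, was at 308, 427 and 1164 CPM in Sham and at 501, 143 and 150 CPM in OVX (standard error 0.65, adjusted p = 0.811, edgeR). It kept its proportion to the neutrophil gene S100a9, with 46.1, 47.5 and 46.8 reads per 100 reads of S100a9 in Sham and 45.8, 48.6 and 48.2 in OVX. The neutrophil marker sum was highest in the same library, Sham 3. Slc11a1, the iron transporter of phagosomes, instead had its highest levels in Sham 2 (53.9 CPM) and OVX 3 (36.1 CPM).

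**Figure D5:**
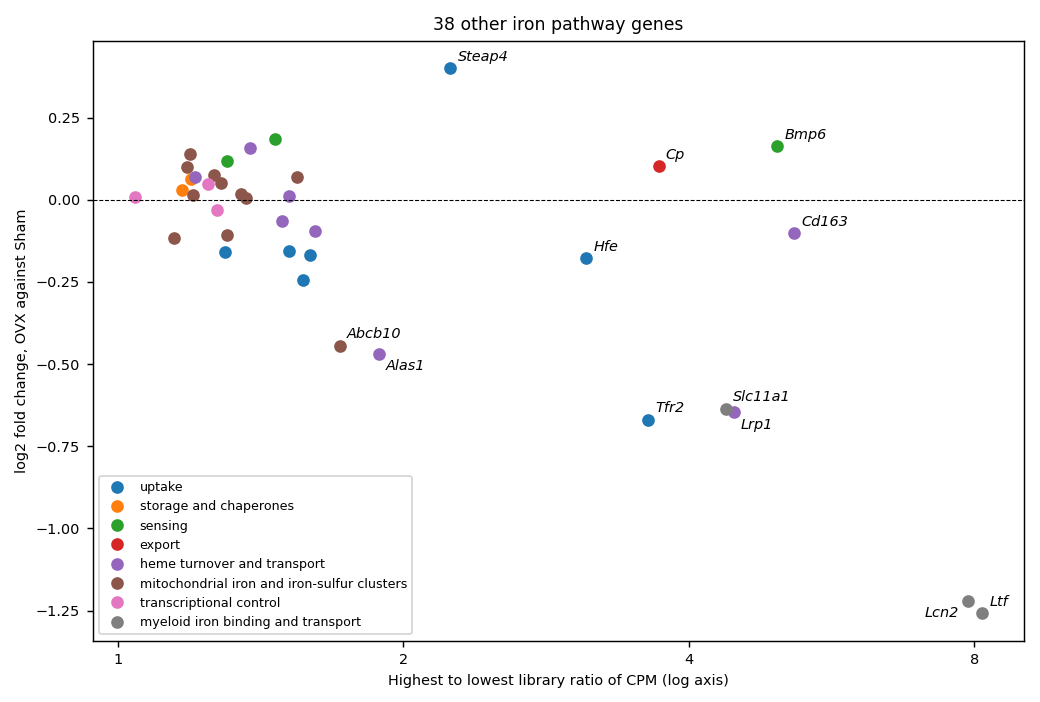
The 38 tested iron pathway genes outside the members, by the ratio of the highest to the lowest library (x axis, log scale) and by log2 fold change, OVX relative to Sham (y axis, 3 libraries per group), coloured by role and with 12 genes labelled after their values were seen. Most genes lie near 0 with a ratio under 2, and Ltf and Lcn2 lie apart at -1.26 and -1.22.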

How the data were processed

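RNA of bone marrow B cells from 3 Sham and 3 OVX samples was analysed, grouped by the treatment and replicate number in the labels. The values deposited by the authors are whole-number read counts for each Ensembl gene and were not normalized. The submitters' processing notes name CASAVA, Bowtie 0.12.2 and mm10, without their roles, and the counting tool, annotation and strand setting are not given in the sources used here. Symbols were matched to 54409 of 54532 identifiers, and to 149 of the 150 listed symbols. Positions and sequences are from RefSeq (GRCm38.p6).

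R 4.3.3 was used with the packages DESeq2 1.42.0, edgeR 4.0.16 and limma 3.58.1. After filterByExpr and TMM scaling, OVX and Sham were compared by the quasi-likelihood test of edgeR, and p-values were adjusted by Benjamini-Hochberg over the 15305 genes tested. Genes were called at an adjusted p under 0.05. The standard error is the size of the log2 fold change divided by the square root of F. For single genes an exact permutation test (two-sided) was run on log2 CPM (prior count 2). Depth was 23838775 to 33136701 counts per library, and counts of reads carry no molecular identifiers. The tests were tried on simulated counts.

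Named were the 10 members, the listed iron genes at an unadjusted p under 0.05 or with groups that did not overlap, the gene of highest mean CPM in each role, chosen markers, and the 3 genes nearest to Trf, Hmox1 and Slc40a1. Outside this rule, Pcbp2, Bach1, Keap1, Hamp, Cd163, Lrp1, Lcn2, Slc11a1, Marco, Gm5475 and Ftl1-ps1 were named after their values were seen. The members and lists were chosen with earlier results of these data known. The alternatives were DESeq2, limma-voom, 4 other scalings, 2 other filters, each library left out, the replicate number as a block, and macrophage, neutrophil or cell cycle levels as a covariate. One was added after the data were seen, without Sham 2 and OVX 3 together. All pairs of libraries differed by more than sampling noise. CPM are not per transcript length, so levels are compared between libraries and not between genes, read ratios of 2 genes serve only to compare libraries, and mean CPM served only to choose names. Some named markers are not reported here.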

Additional observations from a re-analysis of the deposited data

How the results depend on the processing

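None of the 10 iron genes passed an adjusted p under 0.05 in edgeR, DESeq2 or limma-voom under any of the 18 alternatives or the 1 added later, with a lowest adjusted p of 0.309 (Ireb2 without Sham replicate 1), and none of the 38 other iron genes was called either. Of 190 log2 fold changes, 162 kept their direction and 28 turned. The number of members at an unadjusted p under 0.05, which was 0, ranged from 0 to 3 with 1 library left out, the 3 without OVX 3 being Ncoa4, Hmox1 and Slc40a1. It was also 3 without both Sham 2 and OVX 3, which was chosen after seeing the data, 1 with the macrophage covariate (Trf) and 1 with the neutrophil covariate (Slc11a2, log2 fold change 0.25). With 1 library left out, log2 fold changes ranged from -0.0767 to 0.11 for Tfrc, -0.13 to 1.08 for Trf, -0.0870 to 0.11 for Fth1, -0.33 to 0.0559 for Ftl1, -1.17 to 0.24 for Hmox1, -1.19 to 0.15 for Slc40a1 and -0.11 to 0.0845 for Aco1. The lowest came without OVX 3, except for Tfrc (without Sham 2). Turned values were also -0.0290 for Tfrc and 0.0253 for Ftl1 with the cell cycle covariate, 0.0145 for Ftl1 with the macrophage covariate, and -0.47 for Trf, -0.0920 for Fth1 and -0.11 for Aco1 with the neutrophil covariate. They were -0.0507 for Tfrc, -0.0206 for Fth1 and -0.0632 for Aco1 without both Sham 2 and OVX 3, and -0.0094 for Fth1 and -0.0436 for Aco1 with scaling on B cell markers, which moved the median of all genes by -0.0409. Aco1 was at -0.00115 with DESeq2's size factors, -0.0204 with library size only, -0.0125 with upper-quartile factors and -0.00236 without a filter. The causes were not tested. Same-numbered libraries deviated in opposite ways (correlations -0.41, -0.19 and -0.28) and were not treated as pairs in the main fit. The labels do not say whether they are pairs, and these correlations cannot settle it. With the replicate block, 0 members were called, Aco1 was at -0.00696, and 206 genes had an unadjusted p under 0.05 against 574 without it.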
